A study of Homo sapiens with 3 samples.

Results

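SNORD42B and SNORD42A are a pair of related box C/D small nucleolar RNAs (snoRNAs) that lie in introns of the same gene, RPL23A, which encodes a protein of the large ribosomal subunit. They were taken as the 2 deposited entries named U42B and U42A, of 260 snoRNA entries in all, and held 1618 of 51039 reads. The reads come from 3 small RNA libraries of HEK293, an established human embryonic kidney cell line, which form 1 group. The cells were grown in DMEM with serum and antibiotics, and no treatment or genetic change is named in the labels. Small RNA was purified with magnetic beads from phenol-chloroform extracts of total RNA and turned into Ion Torrent libraries. No label ties the libraries to separate cultures, so p-values speak only of how far these libraries differ, possibly for technical reasons. The files used here hold snoRNA reads only, so the label of the cell line was not checked against marker genes.

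Box C/D snoRNAs guide 2′-O-methylation of other RNAs, mostly ribosomal RNA. Their conserved boxes C and D sit near the ends of the RNA and bind the core proteins, among them the methyltransferase fibrillarin, while a less conserved pair, C′ and D′, lies inside. The stretch just before box D or D′ pairs with the target and sets the methylated nucleotide. In humans most of these RNAs are cut out of introns, so that snoRNAs and messenger RNA of a host come from the same transcript, and the ends of the mature snoRNA are left where the bound proteins stop the exonucleases. SNORD42A and SNORD42B are both known as guides for the same uridine of the small-subunit rRNA.

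In GENCODE 29 on GRCh38, SNORD42B lies on the plus strand at chr17:28720550-28720616, in intron 1 of the 5-exon RPL23A transcript that spans the whole gene, and SNORD42A at chr17:28723429-28723492, in intron 3. Each overlaps an exon in 1 of 9 annotated RPL23A transcripts. The annotated sequences are shown because they hold what the pair shares and where it differs, with every TGATG (the core of box C) and CTGA (box D) in capitals, read on the given strand, 5′ to 3′.
SNORD42B: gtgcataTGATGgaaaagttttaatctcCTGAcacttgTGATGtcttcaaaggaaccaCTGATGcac
SNORD42A: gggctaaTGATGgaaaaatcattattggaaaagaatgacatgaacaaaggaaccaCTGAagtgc

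SNORD42B had an internal CTGA at position 29 and an internal TGATG at position 39, and its last TGATG overlaps the final CTGA. SNORD42A had 1 match to each motif, at positions 56 and 8. Among the 118 box C/D snoRNAs of the files with a GENCODE sequence, at any length, TGATG was found in 94.1% and CTGA in 99.2%, and 23.7% had more than 1 match to both. Where GENCODE lists several sequences under a name, they were joined, which can add length and motif matches. A missing match says only that these letters are not there. The 2 sequences were identical at 43 of 67 aligned columns (64.2%). The longest run they share is caaaggaaccactga, 15 nt that end with box D, at positions 48 to 62 of SNORD42B and 45 to 59 of SNORD42A, and among the 118 sequences it was found in these 2 alone. No run of 18 nt, the shortest read length in the files, is common to both, so an error-free read of either snoRNA matches only its own sequence of the pair.

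The deposited positions reach 67 in the SNORD42B entry, which equals the annotated length, and positions in it are read here on the annotated sequence. In the SNORD42A entry they reach only 58, against 64 annotated bases. Where that entry starts and stops on the gene is not known here, so its positions were not placed on the sequence, and start and end positions alone do not separate reads that reach beyond its edges from reads that end there. Read length bears on this in part: 17, 2 and 8 SNORD42A reads in libraries 1, 2 and 3 were longer than their span, the longest having 61 nt, and 74, 34 and 62 were exactly as long. Whether the extra bases lie beyond an edge or within the read was not determined here. Of the 118 box C/D entries with a GENCODE sequence, 50 had a last position equal to the annotated length, 85 were within 2 nt of it, and 18 stopped 6 nt or more before it. Those 18 include entries whose annotated length is far greater, such as SNORD38B (136 against 69) and SNORD91A (286 against 88). Joined sequences can make this count too high.

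The 3 libraries held 19989, 11958 and 19092 reads, of which 9, 7 and 14 lay on the opposite strand and were left out, none of them on the pair. Reads of up to 40 nt made up 27.2% of sense reads in library 2, against 11.9% and 12.0% in libraries 1 and 3. Intervals below are exact (Clopper-Pearson) 95% binomial intervals. They and the limit that a count of 0 allows cover counting error only, because reads were counted without molecular identifiers and are not independent. All permutation tests below are exact, two-sided and flip the sign of the difference in each library; with 3 libraries they cannot give a p below 0.25, which they reach whenever all 3 libraries go the same way.

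SNORD42B had far more reads than SNORD42A. It had 699, 327 and 372 reads in libraries 1, 2 and 3, against 97, 39 and 84 reads of SNORD42A. As a share of sense reads SNORD42B took 3.50%, 2.74% and 1.95% (intervals 3.25% to 3.76%, 2.45% to 3.04% and 1.76% to 2.16%). SNORD42A took 0.485%, 0.326% and 0.440% (intervals 0.394% to 0.592%, 0.232% to 0.446% and 0.351% to 0.545%). The intervals of the pair were apart in every library, and the lowest SNORD42B share was above the highest SNORD42A share. Among 146 box C/D snoRNAs with sense reads, SNORD42B ranked 6 by mean share and SNORD42A 57, and the median was 0.334%. The rank of SNORD42B was 3, 7 and 9 in the 3 libraries, and that of SNORD42A 53, 66 and 65.

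Per nucleotide of entry length, the ratio of SNORD42B to SNORD42A was 6.24-fold in library 1, 7.26-fold in library 2 and 3.83-fold in library 3. The mean log2 ratio was 2.48 ± 0.48 (SD, n = 3), or 5.58-fold, and SNORD42B was higher in 3 of 3 libraries (exact permutation p = 0.25). Its Benjamini-Hochberg adjusted p was 0.5 over the 4 comparisons made within the pair (exact permutation test). Each read is 1 captured fragment, whatever the length of the RNA, and with reads not divided by length the ratio was 6.44-fold. Whether the 2 RNAs were captured and mapped equally well was not tested, and the SNORD42A entry reaches only 58 of 64 annotated bases. The ratio is therefore one of reads. Both copies can come from the same RPL23A transcript, and the RPL23A messenger RNA itself was not measured here.

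RPL23A hosts another related pair, SNORD4A and SNORD4B, which were described alongside for level only. They lie in introns 2 and 4, so the 4 snoRNAs follow each other in the order SNORD42B, SNORD4A, SNORD42A, SNORD4B. Levels are given as reads per nt of entry per 10000 sense reads, which takes library depth into account. SNORD42B averaged 4.07 ± 1.16, SNORD4B 2.12 ± 0.20, SNORD4A 1.02 ± 0.05 and SNORD42A 0.720 ± 0.14 (SD, n = 3 each). This order held in each of the 3 libraries and no neighbours overlapped, the lowest SNORD42B level being 2.91 in library 3. SNORD42B was also the most variable of the 4, with a 1.79-fold gap between its highest and lowest share, against 1.49-fold for SNORD42A, 1.19-fold for SNORD4B and 1.10-fold for SNORD4A. The SNORD42B share was highest in library 1 and lowest in library 3, while that of SNORD42A was lowest in library 2.

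**Figure D1:**
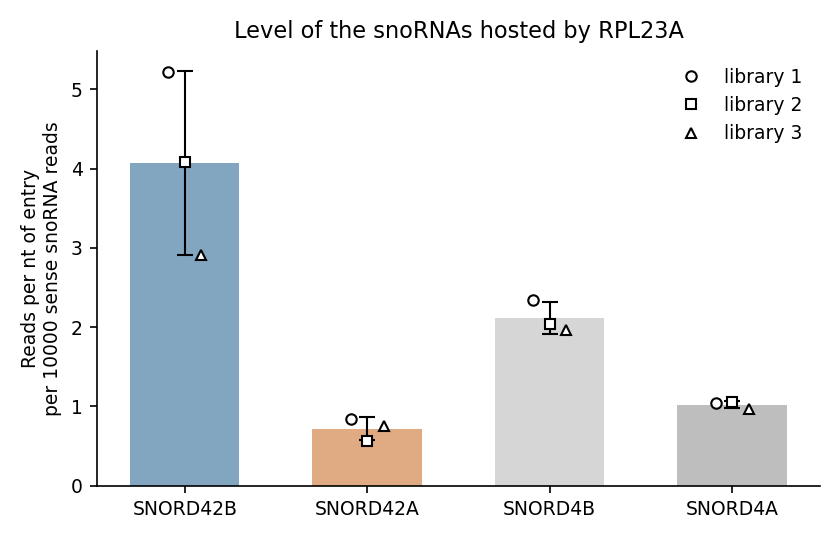
Reads per nt of entry per 10000 sense snoRNA reads (vertical axis) for the 4 snoRNAs hosted by RPL23A; bars are means, error bars SD and points the 3 libraries. SNORD42B lies above the other 3 in every library, and SNORD42A is lowest with a mean of 0.720.

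Unequal levels were common among related snoRNAs of one host. In 9 pairs listed with earlier results of these data known, the B copy was set over the A copy per nucleotide of entry length. SNORD42B over SNORD42A was the second most unequal of these by the size of the mean log2 ratio, behind SNORD45B over SNORD45A of RABGGTB (-2.61 ± 0.38; SD, n = 3). This order rests on entry lengths. With annotated lengths, a choice made after seeing the data, the SNORD42 ratio was 2.62, and the order of the pairs was not tested with them. The SNORD49B entry, of the SNHG29 pair, reaches only 48 of 72 annotated bases. SNORD4B over SNORD4A came to 1.04 ± 0.11, or 2.06-fold, less than the ratio of the SNORD42 pair in every library. The most even pair was SNORD18B over SNORD18A of RPL4, at -0.12 ± 0.34. The ratio had the same sign in all 3 libraries in 7 of the 9 pairs, the exceptions being SNORD18 and SNORD36. Of the 9 pairs, all but those of SNHG5 and SNHG29 lay within the named host in GENCODE 29, where SNORD50A and the name SNHG29 were not found.

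**Figure D2:**
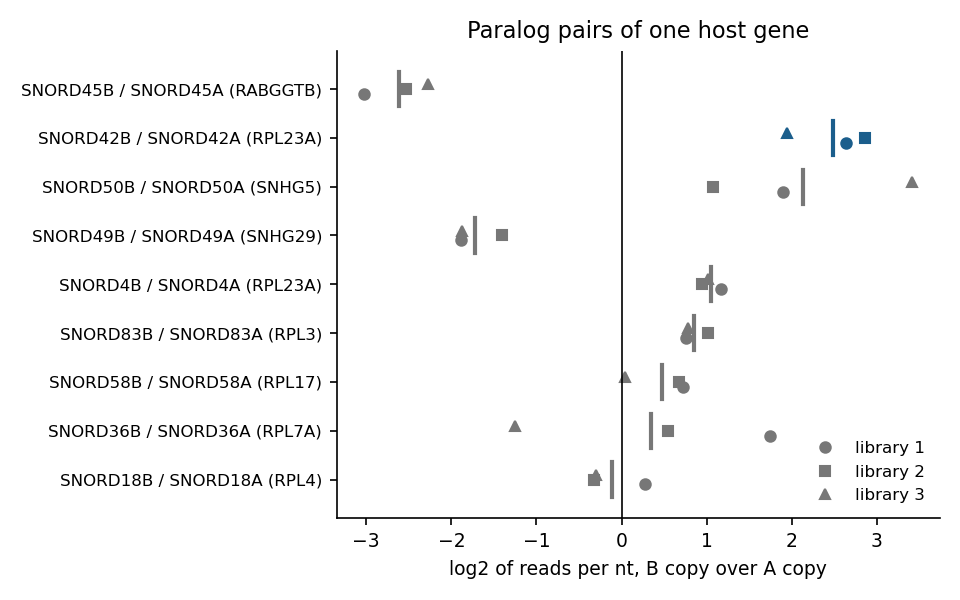
The log2 ratio of reads per nt, B copy over A copy (horizontal axis), for 9 pairs of related snoRNAs with one host gene each; points are libraries and vertical ticks their means. The SNORD42 pair (blue, mean 2.48) lies well above 0, the line of equal level, in all 3 libraries.

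The levels most like those of SNORD42B over the 3 libraries, by the distance of log2 shares to 134 other box C/D snoRNAs with reads in all libraries, were those of SNORD45A (distance 0.286), SNORD38B (0.287) and SNORD24 (0.343). For SNORD42A they were those of SNORD20 (0.266), the entry HBII_82B (0.391) and SNORD76 (0.396). With 3 libraries this likeness is a description only.

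Most reads of both copies spanned nearly the whole snoRNA. Taking a span of at least 90% of the entry as full length, which is 61 nt for SNORD42B and 53 nt for SNORD42A, full-length reads were 84.1%, 78.9% and 84.9% of SNORD42B reads (588, 258 and 316 reads). For SNORD42A they were 80.4%, 69.2% and 88.1% (78, 27 and 74 reads). The means were 82.7% ± 3.3 for SNORD42B and 79.2% ± 9.5 for SNORD42A (SD, n = 3), and the ranges overlapped. SNORD42B was higher in 2 of 3 libraries by a mean of 3.41 ± 6.41 percentage points, with p = 0.5 in the exact permutation test (0.667 adjusted over 4 comparisons), so no difference beyond the spread between libraries was found.

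The comparison depends on what counts as full length. With at least 95% of the entry, which is 64 nt and 56 nt, the shares were 62.6% ± 6.1 for SNORD42B and 77.3% ± 7.0 for SNORD42A, because the SNORD42B reads of 63 nt then fall short while the SNORD42A reads of 56 nt still count. With 90% of the annotated 64 nt in place of the 58 nt of its entry, a choice made after seeing the data, the SNORD42A share was 32.9% ± 4.5, against the same 82.7% for SNORD42B. Its full-length share thus rests on the length of the deposited entry.

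By entry length, the share of full-length reads was higher in both copies than in the other box C/D snoRNAs pooled. The others had 69.7%, 56.9% and 67.3% such reads in libraries 1, 2 and 3. SNORD42B was higher by 18.1 ± 3.8 percentage points and SNORD42A by 14.6 ± 5.4 (SD, n = 3), in 3 of 3 libraries each. Both had p = 0.25 in the exact permutation test and 0.375 adjusted over 6 such comparisons. For SNORD42A the direction holds by entry length only: with the annotated 64 nt its shares were 29.9%, 30.8% and 38.1%, below the others in every library. When the 108 box C/D snoRNAs that had 10 or more reads in every library were ordered, SNORD42B ranked 22 and SNORD42A 39 by this share, and the median was 70.3%. The pooled value includes abundant entries with almost no full-length reads by entry length. Examples are SNORD69 (0.158%) and SNORD4B (1.27%), ranked 11 and 15 by mean share of sense reads. How far such entries lower the pooled value was not tested.

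**Figure D3:**
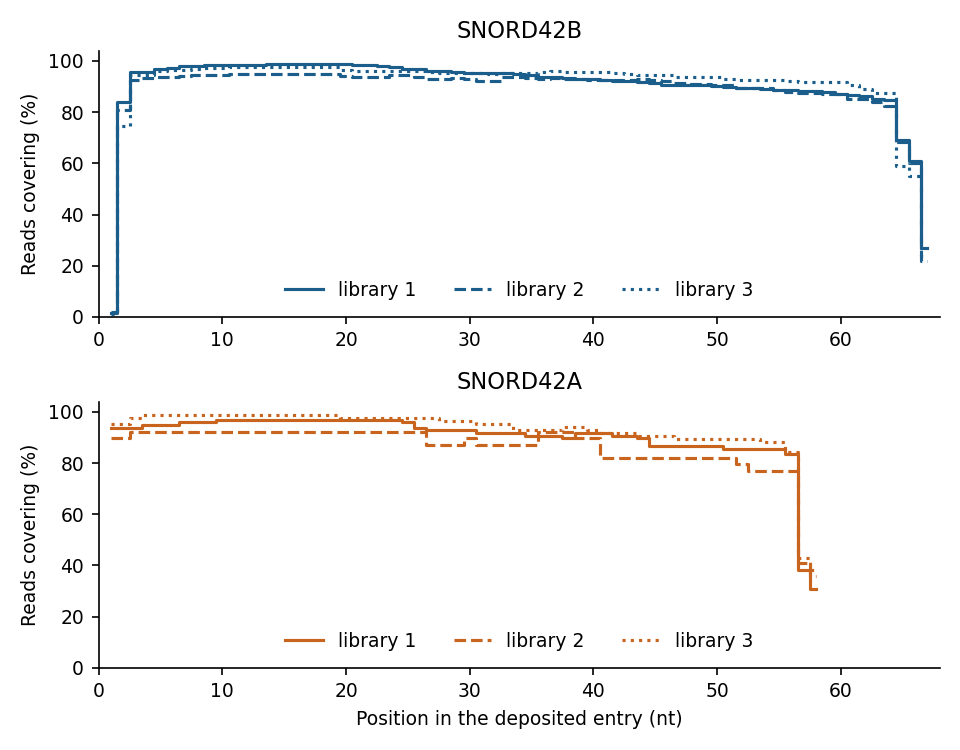
Share of the reads of each snoRNA that cover a position (vertical axis, percent) along the deposited entry (horizontal axis, nt), for SNORD42B above and SNORD42A below; lines are libraries. SNORD42B coverage is almost absent at position 1 and steps up at 2, where 78.3% of its reads start. Coverage then changes slowly along both RNAs and drops at the last few positions, in a step after 64 and again near the end for SNORD42B and after 56 for SNORD42A.

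Full-length reads of SNORD42B began almost always at position 2 or 3. Position 2 held 85.4%, 85.3% and 77.8% of them (502, 220 and 246 reads), a mean of 82.8% ± 4.3, and position 3 held 15.3% ± 4.8 (SD, n = 3). On the annotated sequence these starts lie 6 and 5 nt before the TGATG of box C. Only 1.31% ± 0.65 began at position 1. In SNORD42A, 99.5% ± 0.78 of full-length reads began at position 1 (78 of 78, 27 of 27 and 73 of 74 reads), which is the edge of its entry.

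The 3′ ends were spread over several positions in both copies. SNORD42B ended at position 66 in 40.5% ± 5.0 of full-length reads, at 67 in 28.7% ± 2.7, at 64 in 21.6% ± 8.5 and at 65 in 8.03% ± 3.2 (SD, n = 3). These ends lie 4, 5, 2 and 3 nt after the final CTGA. Position 65 was thus used least of the 4, in each library. Position 67 is the edge of the entry, so reads that reach beyond it are not told apart from reads that end there. In libraries 1, 2 and 3, 114, 40 and 56 SNORD42B reads of any kind were longer than their span, the longest having 71 nt. SNORD42A ended at position 56 in 49.3% ± 4.1, at its last position 58 in 41.6% ± 3.9 and at 57, between them, in 7.26% ± 1.8. In both copies a little-used position, 65 in SNORD42B and 57 in SNORD42A, lay between positions where more reads ended. For SNORD42A 1 of these, 58, is the edge of the entry, where reads that reach further are not told apart from reads that end there.

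**Figure D4:**
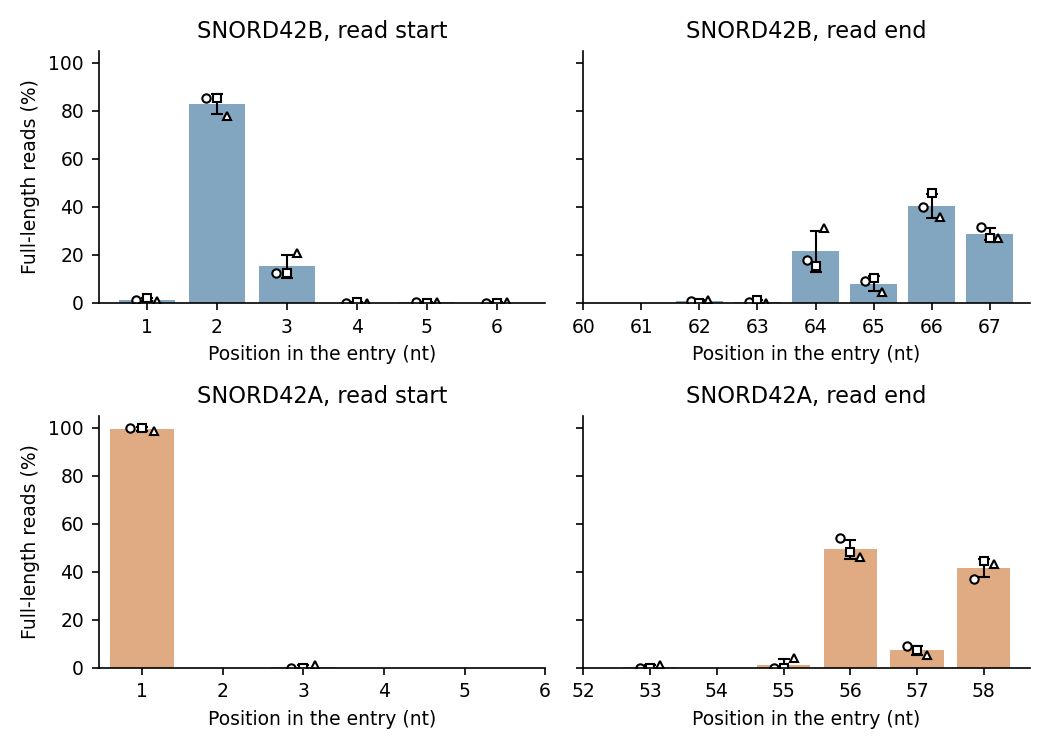
Share of full-length reads (vertical axis, percent) by start and end position in the entry (horizontal axis, nt) for SNORD42B (blue) and SNORD42A (orange); bars are means, error bars SD and points the 3 libraries. SNORD42B reads start mainly at 2 and end at 64, 66 or 67, and SNORD42A reads start at 1 and end at 56 or 58.

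Start and end positions of SNORD42B full-length reads were also set against each other, and the ends 64 and 66 are singled out because their values were seen to differ, so no test is given. Of reads ending at 64, those starting at 3 were 25.7%, 30.0% and 35.4% in libraries 1, 2 and 3, against 9.79%, 9.32% and 9.73% of reads ending at 66. The other ends varied more between libraries, with 7.41%, 7.41% and 28.6% at end 65 and 10.7%, 10.0% and 18.6% at end 67. The share at end 64 was above those at the other 3 ends in each library.

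The commonest single read of SNORD42B ran from 2 to 66, with 172, 93 and 85 ungapped reads in libraries 1, 2 and 3. The next ran from 2 to 67 with 147, 51 and 53 reads, and the third from 2 to 64 with 67, 24 and 55. The end at 64 took its largest part of full-length reads in library 3, with 31.3%, against 17.9% and 15.5% in libraries 1 and 2. For SNORD42A the commonest reads over all libraries, ungapped as well, ran from 1 to 56 (36, 13 and 27 reads), 1 to 58 (21, 11 and 24) and 1 to 57 (7, 2 and 3). The first 2 led in every library. The read from 1 to 57 was tied with others in library 2. In library 3 it was below gapped reads from 1 to 56 and from 1 to 58, with 4 each. Reads whose length differed from their span, which hold an inserted or missing base or bases beyond the aligned part, were 18.8% ± 3.0 of SNORD42B and 20.9% ± 7.1 of SNORD42A reads (SD, n = 3).

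Short reads were few in SNORD42B. Reads of up to 40 nt made up 8.15%, 10.4% and 6.72% of SNORD42B reads (57, 34 and 25 reads), against 11.3%, 25.6% and 9.52% of SNORD42A reads (11, 10 and 8 reads). The mean difference, SNORD42B minus SNORD42A, was -7.08 ± 7.07 percentage points, negative in 3 of 3 libraries (p = 0.25, and 0.5 adjusted over 4 comparisons, exact permutation test), a comparison added after seeing the data. Most of that mean came from library 2. The intervals of the copies were 7.31% to 14.2% and 13.0% to 42.1% there, and overlapped in all 3 libraries. The other box C/D snoRNAs had 11.6%, 25.7% and 11.5%, so SNORD42A was within 2 percentage points of them in each library, and SNORD42B differed from them by -3.46, -15.3 and -4.80 points (p = 0.25 and 0.375 adjusted over 6, exact permutation test). Library 2 had the highest share of short reads in all 3 sets. Of the 108 box C/D snoRNAs ordered above, SNORD42B ranked 86 and SNORD42A 54 by this share, with a median of 15.4%. The same limit of 40 nt was used for entries of 67 and 58 nt. Reads over 40 nt but short of full length were 7.73%, 10.7% and 8.33% of SNORD42B reads. For SNORD42A they were 8.25%, 5.13% and 2.38%.

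Reads of 20 to 24 nt, the size of miRNAs and the subject of the study's title for U3, were rare in both copies. SNORD42B had 17, 6 and 4 such reads, or 2.43%, 1.83% and 1.08%. SNORD42A had 2, 2 and 0, or 2.06%, 5.13% and 0%, and the exact interval of 0 in 84 reads reaches 4.30% in library 3 (a floor of 3 counts would be 3.57%). The means were 1.78% ± 0.68 and 2.40% ± 2.58 (SD, n = 3), for SNORD42B and SNORD42A in that order, with a difference of -0.62 ± 2.35 percentage points and p = 1 in the exact permutation test. Without library 2 the difference was 0.723 points. The other box C/D snoRNAs had 2.29%, 4.33% and 2.59%, and neither copy differed from them in the same direction in all libraries. By this share SNORD42B ranked 80 and SNORD42A 63 of 108.

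**Figure D5:**
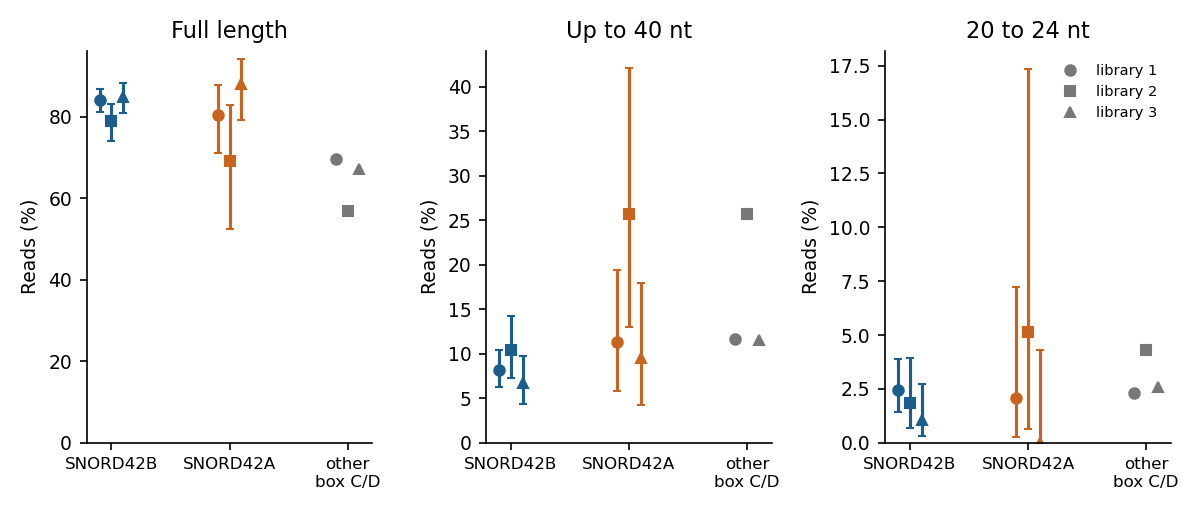
Share of reads (vertical axes, percent) that were full length, up to 40 nt and 20 to 24 nt long, for SNORD42B, SNORD42A and all other box C/D snoRNAs pooled; points are libraries and error bars exact 95% binomial intervals. SNORD42B has few short reads in all 3 libraries, including library 2 with 10.4%.

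The 27 SNORD42B reads of 20 to 24 nt lay at 14 different positions, with at most 4 reads at any one. They fell into a group beginning at position 2 or 3 (14 reads) and a group ending in the last 4 positions (9 reads), with 4 elsewhere. The first group was the larger in library 1 only, with 11 reads against 4. It had 2 against 3 in library 2 and 1 against 2 in library 3. Position 2 to 22 and position 2 to 23 had 4 reads each, 3 in library 1 and 1 in library 3 for the shorter, and all 4 in library 1 for the longer. They are shown as the commonest miRNA-sized reads of the pair, taken from the annotated sequence, with the TGATG of box C in capitals.
SNORD42B 2 to 22 (chr17:28720551-28720571): tgcataTGATGgaaaagtttt
SNORD42B 2 to 23 (chr17:28720551-28720572): tgcataTGATGgaaaagtttta

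Among the 116 SNORD42B reads of up to 40 nt, 76 began at position 2 or 3 and 22 reached the last 4 positions. The 15 nt shared with SNORD42A, which end with box D, were covered in full by 27 of these reads, while 87 ended before them. Of the 29 such SNORD42A reads, 19 began at position 1 and 7 reached the last 4 positions. Reads of up to 40 nt of both copies thus came mostly from the 5′ end. Those of 20 to 24 nt did not share this in SNORD42A. Of its 4 such reads, 1 began at position 1 and 3 reached the last 4 positions, too few to compare. For SNORD42B at that size, the group at the 5′ end was the larger in library 1 only.

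The position of short reads was tested across all snoRNAs with at least 10 of them. The measure was whether the midpoint of a read of up to 40 nt lay before or after the middle of the entry. On the 5′ side SNORD42B had 49, 21 and 17 short reads, and on the 3′ side 8, 13 and 8. For SNORD42A these numbers were 8, 7 and 7 on the 5′ side and 3, 3 and 1 on the 3′ side. The log2 ratio of 3′ to 5′ reads was -1.46 ± 0.59 for SNORD42B and -1.64 ± 0.96 for SNORD42A (SE), below 0 in 3 of 3 libraries each. Neither passed the threshold of 0.05 in edgeR's quasi-likelihood test, with Benjamini-Hochberg adjusted p of 0.0507 for SNORD42B and 0.187 for SNORD42A. Of the 133 snoRNAs tested, 27.8% were called (37), 15.8% toward the 5′ part (21) and 12% toward the 3′ part (16), and the median log2 ratio was -0.50. With a library size for each part, which moved that median to -0.03, the calls were 12 and 17, and the ratios of SNORD42B and SNORD42A were -0.94 and -1.13. Their edgeR adjusted p was then 0.173 and 0.425, in that order.

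When all reads spanning under 90% of the entry were used, longer fragments included, both copies passed toward the 5′ part. For SNORD42A the 90% limit and the middle both rest on the 58 nt of its entry, and the test was not run with the annotated 64 nt. The log2 ratio was then -1.80 ± 0.44 for SNORD42B and -1.84 ± 0.61 for SNORD42A (SE), with edgeR adjusted p of 0.00673 and 0.0324, among 40 calls toward the 5′ part and 18 toward the 3′ part in 174 snoRNAs. Of the 120 SNORD42B reads longer than 40 nt but short of full length, 87 began at position 2 or 3 and 17 reached the last 4 positions. For SNORD42A reads beginning at position 1 and reaching the last 4 positions were 9 and 2 of 12. By entry length, incomplete reads of both copies thus mostly kept the 5′ end and lacked bases at the 3′ end.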

How the data were processed

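The authors deposited raw read counts, per the file headers, in records that name a snoRNA entry and the length, start and end of the read in it. The submitters' processing notes name the build GRCh38.p10. Aligner, trimming and filters: not given in the sources used here. A deposited table of totals, with 3 per-sample columns of which 2 match no sample title, was not used. Entry length was the highest position in any library. Names came from RefSeq (GRCh38.p14), where 246 of 259 entries with sense reads matched a symbol, and sequences and positions from GENCODE 29, on GRCh38. A read is full length at 90% of the entry or more.

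Shares were averaged over libraries with equal weight. Values within libraries were compared with exact sign-flip permutation tests. The position test was edgeR's quasi-likelihood test with library as block and the library total as size of both parts. The SE given with its log2 ratios was worked back from the test, as the size of the ratio divided by the square root of the F statistic. Members, lists and pairs were chosen with earlier results of these data known, and 1 listed pair is not reported here. Named snoRNAs were the pair, the other RPL23A-hosted snoRNAs, the listed pairs, the 3 nearest in level, and the commonest reads. Alternatives left out each library and changed lengths, sizes, filters, gapped reads, normalization and tool. Tools were edgeR 4.0.16 and DESeq2 1.42.0 in R 4.3.3, and SciPy 1.17.1, NumPy 2.4.6, pandas 2.3.3 and matplotlib 3.10.9 in Python 3.11.15.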

Additional observations from a re-analysis of the deposited data

How the results depend on the processing

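The log2 level ratio of SNORD42B to SNORD42A stayed above 0 under all alternatives run, from 1.84 with each distinct record counted once to 2.75 without library 3. The difference in full-length share turned to -14.6 percentage points at 95% of the entry and to -9.77 with each distinct record counted once, and was 0.279 to 6.69 without 1 library. The difference at 20 to 24 nt was 1.80 with each distinct record counted once and -1.46 to 0.723 without 1 library. The cause was not tested. With all reads, start 2 and end 66 of SNORD42B were 78.3% and 34.4%, and start 1 and end 56 of SNORD42A 92.9% and 41.0%, since fragments are then included. Calls toward the 5′ and 3′ parts were 11 and 9 of 133 snoRNAs with DESeq2. They were 11 and 9 of only 48 with at least 10 short reads in every library (SNORD42A was not tested there). Toward 5′ there were 12 of 133 with a size per part and 40 of 174 with all reads under 90%. Without 1 library edgeR made 0 to 6 and 0 to 8 calls in 108 to 114 snoRNAs. The 0 calls without library 2 and without library 3 stand beside 22 and 21 snoRNAs at an unadjusted p under 0.05, and DESeq2 was run on all 3 libraries only. The ratios of both copies stayed below 0 in all of these. SNORD42A, with 39 reads in library 2, limits what the pair can show.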
